A study of Homo sapiens with 4 samples.

Results

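The 303 genes described here are the well-expressed long noncoding RNA (lncRNA) genes of 4 RNA-seq libraries labelled HepG2, which is a long-established line from a human liver tumour. They were chosen by measured values, as the rows that the deposited tables type as lncRNA and that held at least 5 CPM (a gene's count divided by the library total and multiplied by 1000000) in each of the 4 libraries. The tables hold 44591 genes, 4452 of them typed lncRNA, and 2811 of these had at least 1 count in some library. Since the choice used the counts themselves, the levels below are given as a description, and the choice favoured no treatment group because every library had to reach the minimum. It did leave out lncRNAs that fell below the minimum in any library, and with them some larger differences. HOTTIP and MIR210HG, at 4.48 and 3.58 CPM in their lowest libraries, are examples.

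By the labels and the study, the siNC group received a control siRNA and the siLINC01186 group an siRNA against the lncRNA LINC01186, which the study calls SALIS. Each group has replicates 1 and 2, and all 4 cultures had 6 h without serum after transfection and then 24 h with 10% serum. The study gave both replicates the same siNC but different siRNA oligos, which it describes as directed at LINC01186. The oligo and the replicate number thus cannot be told apart in the siLINC01186 libraries, and the labels do not say which oligo each received. The libraries were poly(A)-selected and held between 14968958 and 17297245 counts, so that the minimum of 5 CPM stood for 74.8 to 86.5 counts. Nothing in the labels says that the replicates came from separate thaws or passages, so the p-values measure the spread between these libraries only.

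LINC01186 itself was counted 15 times in siNC replicate 1 and 14 times in siNC replicate 2, against 12 and 14 times in the siLINC01186 libraries. This is below 1 CPM everywhere, so LINC01186 is not a member, and it differed between the groups by -0.12 ± 0.53 (SE) on the log2 scale. The libraries labelled siLINC01186 are therefore named by their label, as a lower level of the target was not detectable at this depth. The study reports knockdown of SALIS by qPCR in HepG2, which is not part of these libraries. The cell label was checked in the same way against 10 hepatocyte genes. ALB, the gene for serum albumin, had 0 counts in both replicate 1 libraries, and 15 and 14 counts in siNC and siLINC01186 replicate 2. Of the 10 genes, 9 stayed below 2 CPM in every library, and HNF4A, a transcription factor of liver and gut epithelium, was the exception with 79, 83, 161 and 188 counts. The defining hepatocyte markers were thus absent or nearly so, and the name HepG2 is used here only as the libraries' label. Summed over the 10 genes, the level was 4.74 and 6.01 CPM in the siNC and siLINC01186 libraries of replicate 1, and 17.5 and 16.4 CPM in those of replicate 2. Among the markers of other cell types, 4 of 5 leukocyte genes and 4 of 5 endothelial genes stayed below 2 CPM, with CD3E and KDR at 0 in every library. The leukocyte exception was CD68, with 48.6 and 52.5 CPM in siNC and siLINC01186 of replicate 1, and 53.4 and 54.3 CPM in those of replicate 2. The endothelial exception was CDH5, with 2.47 CPM in siLINC01186 replicate 1. The 5 fibroblast genes summed to 47.3 and 42.6 CPM in replicate 1 and to 76.8 and 69.4 CPM in replicate 2, of which the collagen gene COL1A1 took 27.0, 22.2, 49.96 and 40.5 CPM in the same order. COL1A1, COL3A1 and DCN were higher in both replicate 2 libraries, and COL1A2 and LUM overlapped between the replicates. Fewer cells of a type and less RNA per cell cannot be told apart in such bulk samples.

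LncRNAs are transcripts without a long open reading frame that are mostly spliced and polyadenylated like mRNAs. Some act in the nucleus, where MALAT1 collects in speckles and NEAT1 builds paraspeckles. Others act in the cytoplasm, where NORAD binds Pumilio proteins, and others again carry a small RNA such as a snoRNA or a microRNA in an intron or exon. A lncRNA entry of an annotation can also be a readthrough transcript that joins neighbouring genes, or run antisense to a protein-coding gene, and then its reads may lie on exons of that gene.

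By their names, descriptions and positions in the tables, 96 members were classed as antisense, 48 as intergenic, 43 as readthrough, 21 as snoRNA hosts, and 95 as none of these. A snoRNA lay inside the span of 24 members, of which 3 were classed as readthrough. The antisense class was set by name or description, and 36 of the 95 unclassed members also overlapped a protein-coding gene on the opposite strand. The span of 127 members was clear of any protein-coding gene. All 43 readthrough entries overlapped a protein-coding gene on their own strand, and 76 of the 96 antisense entries overlapped one on the opposite strand. The readthrough entries took 23.0% of the members' summed CPM and the antisense entries took 19.97%. The members together held 1.35% of all counts in both replicate 1 libraries, and 1.41% in both replicate 2 libraries.

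Counts of many overlapping members followed those of the gene they overlap. MIF-AS1 runs antisense to MIF, the gene of macrophage migration inhibitory factor. It was counted 11508 and 11687 times in siNC, and 13599 and 12718 times in siLINC01186. MIF had 11332, 11539, 13423 and 12600 counts in the same order. In every library MIF-AS1 thus stood between 101% and 102% of MIF. VIM-AS1, antisense to the vimentin gene, stood between 31.8% and 33.4% of VIM in every library. SENP3-EIF4A1, a readthrough entry over the translation initiation factor gene EIF4A1, stood between 98.5% and 98.9% of the summed counts of the protein-coding genes in its span. ATP6V1G2-DDX39B held 99.4% to 99.8% of the count of DDX39B, an RNA helicase gene. Of the 43 readthrough entries, 15 stayed within 20% of the summed counts of the protein-coding genes they cover in every library, against 2 of the 122 other members that overlap a protein-coding gene on the opposite strand. The counting program and its use of strand are not given in the sources used here, so reads of these entries and of the genes they overlap cannot be told apart, and their levels are uncertain.

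**Figure D1:**
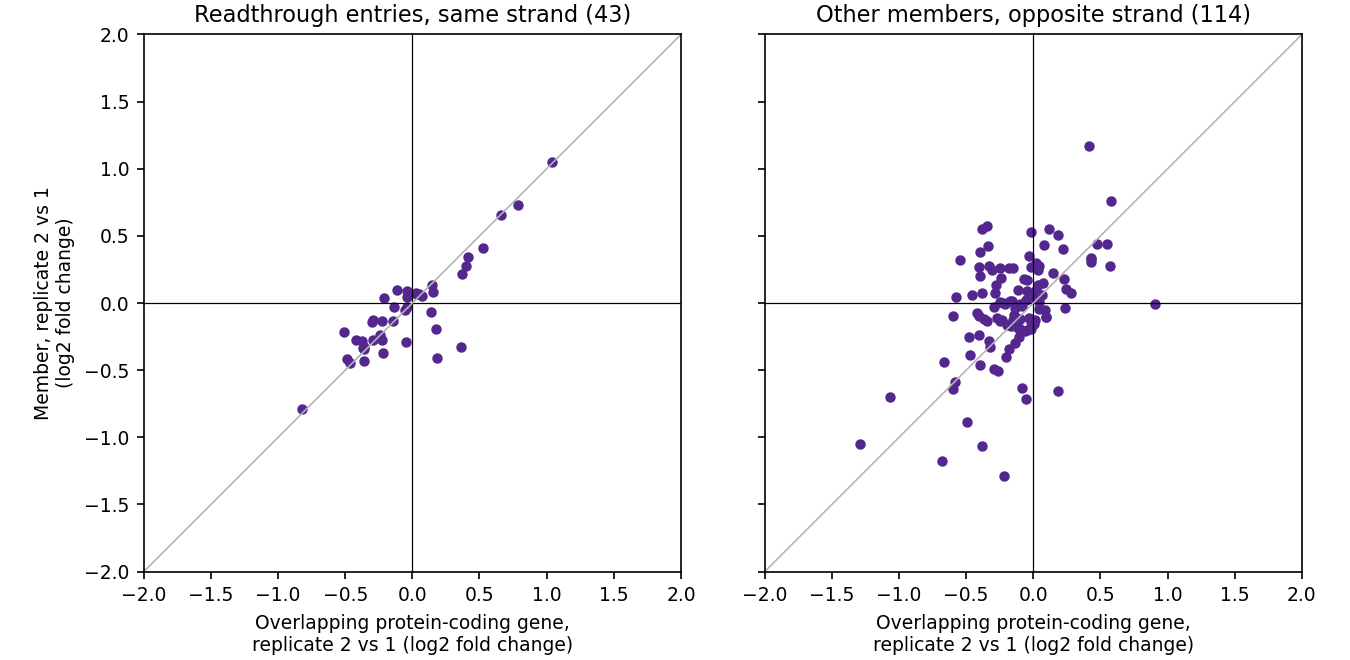
Log2 fold change of replicate 2 against replicate 1 for each member (vertical axis) and for the most abundant protein-coding gene it overlaps (horizontal axis), with the line of equal change; the left panel holds 43 readthrough entries and the right panel 114 other members overlapping on the opposite strand, whose partner also had 5 CPM in each library. The median distance from the line was 0.07 for the readthrough entries, with a largest of 0.69 for ZNF8-ERVK3-1, and 0.20 for the other members.

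MALAT1, at chr11:65265209-65273987 on the plus strand in the tables' coordinates (the submitters' processing notes name hg19), had the highest mean level. It held 1124 and 1568 CPM in siNC replicates 1 and 2, and 1148 and 1550 CPM in siLINC01186 replicates 1 and 2. Both replicate 2 libraries lay above both replicate 1 libraries, and the groups overlapped. NEAT1, its neighbour at chr11:65190269-65213011, held 1499 and 1026 CPM in siNC replicates 1 and 2, and 1259 and 761 CPM in siLINC01186 replicates 1 and 2. Here both replicate 2 libraries lay below both replicate 1 libraries. The count of NEAT1 was 1.33 and 1.10 times that of MALAT1 in the siNC and siLINC01186 libraries of replicate 1, and 0.654 and 0.491 times in those of replicate 2. MALAT1 and the long form of NEAT1 have no poly(A) tail, so a poly(A)-selected library may hold only part of them. These 2 genes together took between 16.4% and 19.4% of the members' counts.

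H19, an imprinted gene that is expressed from the maternal copy in fetal liver, held 560 and 812 CPM in siNC replicates 1 and 2, and 593 and 549 CPM in siLINC01186 replicates 1 and 2. Only siNC replicate 2 stood apart, on the high side. LRRC75A-AS1, whose RefSeq name is SNHG29, is a snoRNA host gene and held 471 and 566 CPM in the siNC libraries and 570 and 724 CPM in the siLINC01186 libraries. NORAD, which keeps Pumilio proteins from their target mRNAs, held 270 and 366 CPM in siNC, and 296 and 428 CPM in siLINC01186. GAS5, a snoRNA host that also binds the glucocorticoid receptor, held 139 and 191 CPM in siNC, and 183 and 230 CPM in siLINC01186. CCAT1, a lncRNA known from colon cancer, kept to between 114 and 130 CPM in all 4 libraries. The 15 highest by CPM also held MIF-AS1, VIM-AS1, SENP3-EIF4A1 and 5 more readthrough entries, namely BLOC1S5-TXNDC5, ATP6V1G2-DDX39B, TMX2-CTNND1, HNRNPUL2-BSCL2 and P2RX5-TAX1BP3.

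**Figure D2:**
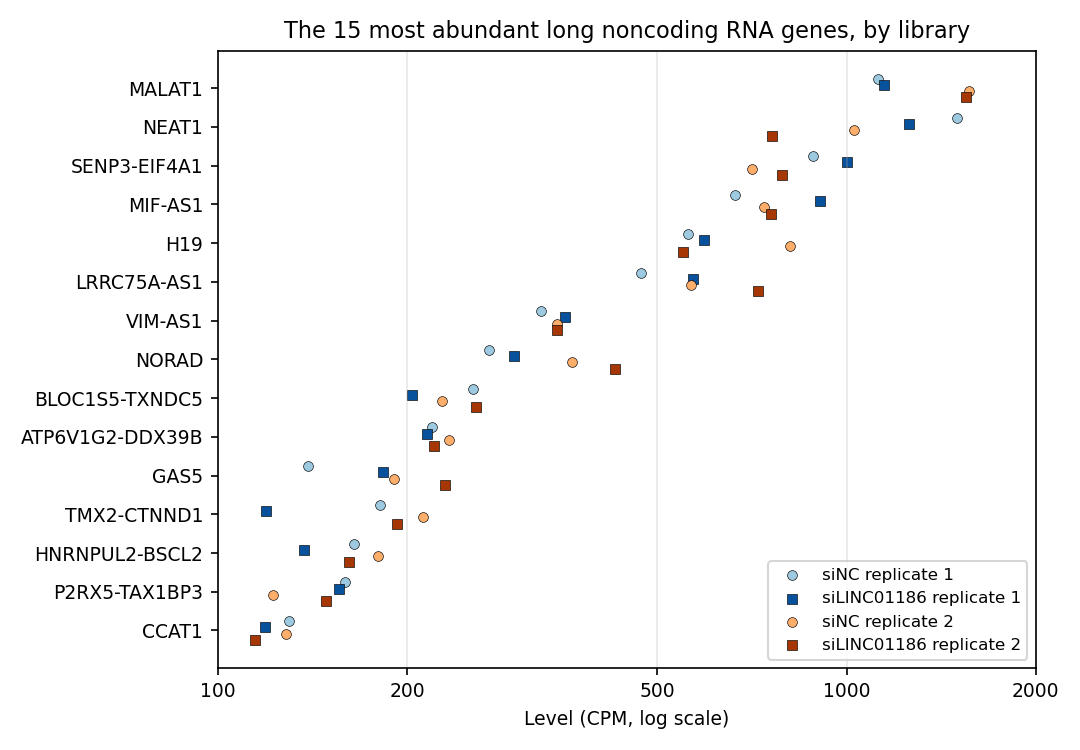
Level in CPM (horizontal log axis) of the 15 members with the highest mean CPM, 1 point per library, circles for siNC and squares for siLINC01186, blue for replicate 1 and orange for replicate 2. MALAT1 lies higher and NEAT1 lower in both replicate 2 libraries, and H19 is highest in siNC replicate 2.

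The order changed when the levels were taken per length. In TPM, which divides each count by the gene's length, MIF-AS1 came first with a mean of 718 and GAS5 second with 602. H19 followed with 501 and LRRC75A-AS1 with 475. MALAT1, which is 8779 nt long in the tables, fell to rank 8 with 316 TPM, and NEAT1, entered at 22743 nt, fell to rank 16 with 104 TPM. GAS5 rose because its entry is only 632 nt long, and the same holds for SNHG6 (472 nt, 343 TPM) and ZFAS1 (1030 nt, 228 TPM). The mean level over the 303 members ran from 5.61 to 1348 CPM with a median of 15.2 CPM. Only 20 members exceeded 100 CPM and 195 lay under 20 CPM. The 10 most abundant members took between 45.4% and 48.6% of the members' counts. LINC00899 and CRHR1-IT1 were the closest above the minimum, each with 5.01 CPM in its lowest library, and LINC02043 and LOC100507437 were the closest below it, each with 4.996 CPM.

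No member passed the study's limits, which ask for an unadjusted p below 0.05 and for more than 1 unit of log2 change, when siLINC01186 was compared with siNC. Over all 23942 genes tested 0.756% passed these limits in either direction, and over the 10448 protein-coding genes that reach the same 5 CPM 0.0383% did. No member had an adjusted p under 0.05 in edgeR's quasi-likelihood test or in DESeq2's Wald test, and 3 had an unadjusted p under 0.05 in the former and 0 in the latter. In edgeR's test 289 of the 23942 genes tested had such an unadjusted p, 157 of them higher. Of the 10448 protein-coding genes at the same level, 94 did. The 3 members, named after their values were seen, were all lower. HOTAIRM1, a lncRNA of the HOXA cluster, had 20.1 and 24.3 CPM in siNC and 14.8 and 16.7 CPM in siLINC01186, a log2 fold change of -0.51 ± 0.21 (SE). SNHG4, a snoRNA host, had 31.0 and 27.6 CPM in siNC and 20.8 and 21.5 CPM in siLINC01186, a log2 fold change of -0.49 ± 0.20 (SE). LOC284454 had 14.97 and 17.01 CPM in siNC and 9.75 and 12.1 CPM in siLINC01186, a log2 fold change of -0.57 ± 0.23 (SE). In each of the 3 both siLINC01186 libraries lay below both siNC libraries. The adjusted p was 1.00 in this edgeR fit, which has no term for the replicate number. Leaving out siLINC01186 replicate 1 put MIA-RAB4B past the limits, leaving out siNC replicate 2 put PAX8-AS1 past them, and leaving out siLINC01186 replicate 2 put BAIAP2-AS1 and CRHR1-IT1 past them. The median log2 fold change of the members was -0.01, beside 0.00 over all genes tested. Both siLINC01186 libraries lay above both siNC libraries for 30 members, or below them for 37, where the shares over all genes tested were 14.7% and 10.8%.

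Within each replicate number the differences were small. They are given as siLINC01186 minus siNC in log2 CPM, scaled by TMM, a normalization that sets the bulk of the genes equal. The median absolute difference of the members was 0.16 in replicate 1 and 0.17 in replicate 2. The median absolute difference between replicates, taken within a group, was 0.27 in siNC and 0.28 in siLINC01186. Counted by sign alone, with no minimum size, 75 members were higher in both replicate numbers and 92 lower, and 136 had opposite signs. Over all genes tested 27.2% were higher in both and 26.2% lower. Across the 303 members the 2 differences had a correlation of 0.18, as a description over genes that share libraries.

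The largest rises within replicate 1 were those of LUCAT1, TSNAX-DISC1 and LOC100294145. LUCAT1, a stress-responsive lncRNA, had 6.24 CPM in siNC and 11.0 CPM in siLINC01186 of replicate 1, a difference of 0.82, and 14.7 and 13.8 CPM in replicate 2, a difference of -0.15. Only siNC replicate 1 was low. The largest falls within replicate 1 were those of LINC00899 (-0.76), CRHR1-IT1 (-0.69) and LOC284454 (-0.59). In replicate 2 these 3 differed by -0.26, -0.59 and -0.54. The largest rises within replicate 2 were those of MIA-RAB4B (0.79), LOC105371795 (0.68) and LINC01234 (0.63), which differed by -0.00, -0.10 and 0.27 in replicate 1. The largest falls within replicate 2 were those of LOC103344931 (-0.74), FLJ42627 (-0.72) and HRAT92 (-0.71). H19 also fell apart by replicate number, with differences of 0.10 and -0.62. The difference between the 2 pairs could not be tested, since a fit with a term for it leaves no degrees of freedom.

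When the replicate number was added to the fit as a block, so that the groups were compared within it, 2 members passed an adjusted p of 0.05, both lower, and none was higher. This comparison was run in edgeR only, so neither call was checked with DESeq2. Over all genes tested 0.814% passed as lower and 0.347% as higher, and over protein-coding genes at the same level 1.68% passed as lower. NEAT1 had a log2 fold change of -0.36 ± 0.08 (SE) with adjusted p = 0.00478 in edgeR, with differences of -0.23 and -0.48 within replicates 1 and 2. Without the block its log2 fold change was -0.33 ± 0.31 (SE), and it turned to 0.02 without siNC replicate 1 and to 0.04 without siLINC01186 replicate 2. TMX2-CTNND1 had -0.38 ± 0.11 (SE) with adjusted p = 0.0402, from 181 and 212 CPM in siNC and 119 and 193 CPM in siLINC01186. It held between 99.9% and 108% of the counts of CTNND1, the p120 catenin gene in its span, whose own differences were -0.65 and -0.19. HOTAIRM1 and SNHG4, named above, came near the limit with the block, at adjusted p = 0.0703 and 0.0682 in edgeR. They did not pass, and neither did LOC284454.

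**Figure D3:**
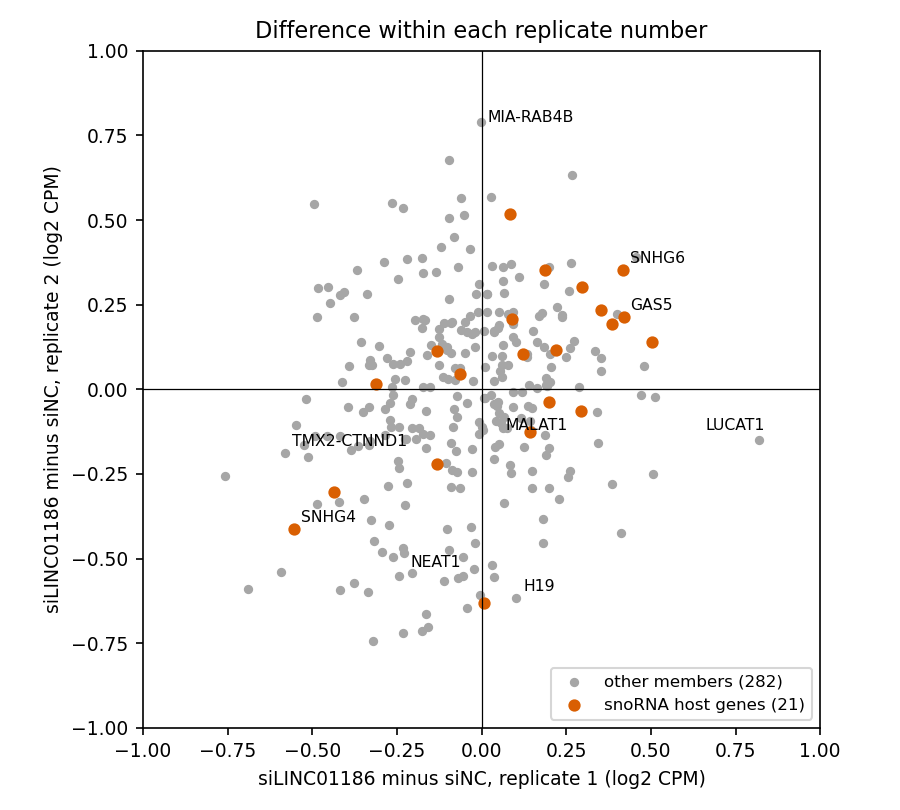
Difference between siLINC01186 and siNC in log2 CPM within replicate 1 (horizontal axis) and within replicate 2 (vertical axis) for the 303 members, 1 point each, with the 21 snoRNA host genes in orange. The cloud has little slope, with a correlation of 0.18, and 11 of the 21 orange points lie to the upper right, above 0 on both axes.

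SnoRNAs guide the chemical modification of ribosomal RNA and are cut from the introns of host genes, while the spliced host RNA is what a poly(A) library counts. Of the 21 snoRNA hosts among the members, 11 were higher in siLINC01186 within both replicate numbers, 3 were lower within both, and 7 were mixed, again by sign alone and beside the 27.2% and 26.2% of all genes tested. Their median differences were 0.14 in replicate 1 and 0.11 in replicate 2, beside -0.04 and 0.01 for all members and 0.01 and 0.00 for all genes tested. None passed an adjusted p of 0.05 with or without the block, so these are counts and values, not calls. SNHG6 had 64.7 and 72.0 CPM in siNC and 85.2 and 95.3 CPM in siLINC01186, so that the groups did not overlap. ZFAS1 had 95.6 and 109 CPM in siNC and 123 and 130 CPM in siLINC01186, again without overlap. LRRC75A-AS1 differed by 0.30 within both replicate numbers, and with the block its adjusted p was 0.0831. GAS5 differed by 0.42 and 0.21, and SNHG5 by 0.50 and 0.14. SNHG4 and SNHG19 went the other way, with -0.55 and -0.41 for the first and -0.44 and -0.30 for the second.

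**Figure D4:**
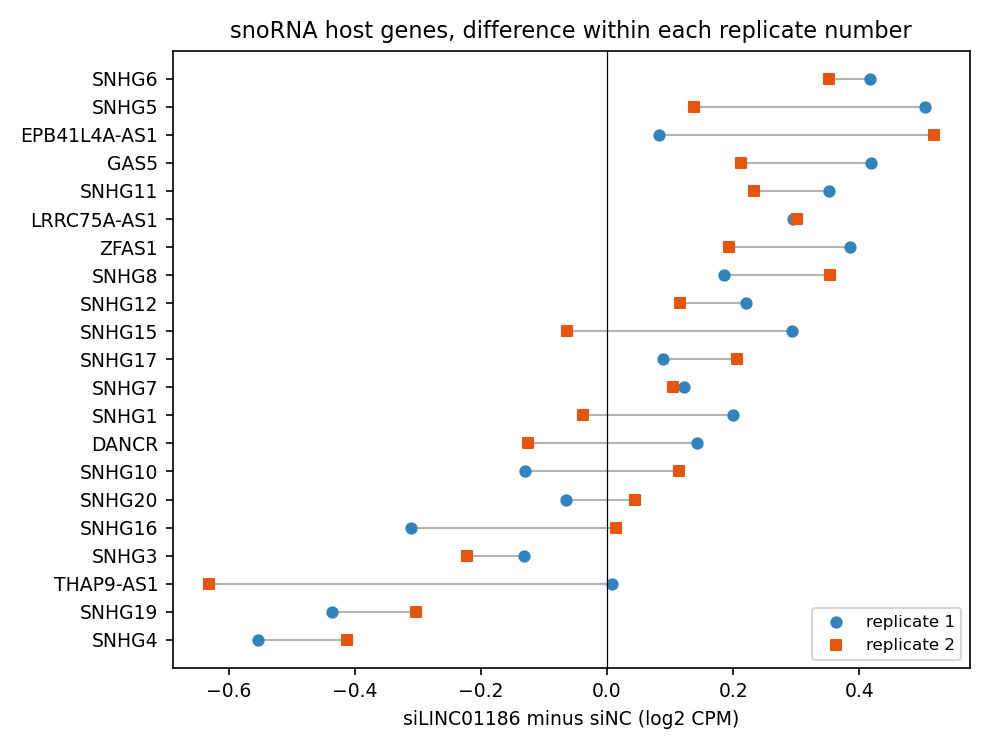
Difference between siLINC01186 and siNC in log2 CPM (horizontal axis) within replicate 1 (circles) and within replicate 2 (squares) for the 21 snoRNA host genes, ordered by their log2 fold change. For 11 genes both points lie to the right of 0, and for SNHG3, SNHG4 and SNHG19 both lie to the left.

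Several snoRNA host genes, like the ribosomal protein genes, are known to start their transcripts with a C followed by a run of pyrimidines, and so the starts of these members are shown. Of the 303 members 205 had an entry in a RefSeq promoter table (GRCh38.p14), among them 19 snoRNA hosts. A C at the annotated start followed by at least 4 C or T bases, read on the gene's strand, was found in 5 of the 19 hosts (26.3%), in 12 of the 205 members (5.85%) and in 1104 of all 27305 promoters (4.04%). It was found in 3 of the 10 hosts with an entry that were higher within both replicate numbers and in 2 of the other 9. The windows of 30 bases below, 10 before the start and 20 from it, hold the run in capitals.
ZFAS1: gccattcgttCTTTCgcgtctgcggtgccc
SNHG5: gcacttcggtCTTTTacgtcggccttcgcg
SNHG12: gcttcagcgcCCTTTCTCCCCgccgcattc
SNHG19: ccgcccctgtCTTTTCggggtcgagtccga
SNHG4: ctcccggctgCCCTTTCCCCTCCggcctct
SNHG11: gctctaggctgcagccgcgcccccagccgt
These lie at chr20:49278632-49278661 (plus strand), chr6:85678714-85678743 (minus), chr1:28581854-28581883 (minus), chr16:2155339-2155368 (minus), chr5:139274091-139274120 (plus) and chr20:38446644-38446673 (plus). ZFAS1, SNHG5 and SNHG12 were higher within both replicate numbers and SNHG19 and SNHG4 lower, so the run was present on both sides. SNHG11, shown as a host without the run at its annotated start, was higher with 0.35 and 0.23. A run that begins a few bases from the annotated start would not be counted.

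PURPL, listed in the tables as LINC01021 at chr5:27472399-27496508, is a lncRNA that p53 is known to induce. It is shown with the siRNA sequences because the first of the 2 oligos printed by the study matches it. The oligos are as follows, in lower case as no part is singled out.
siSALIS_01: agggctctattgggcaaaaa
siSALIS_02: ctaagtgactcactgcatc
Searched in 206694 transcripts of GENCODE release 29, the reverse complement of siSALIS_01, tttttgcccaatagagccct, was found in 5 transcripts of PURPL and in no other gene, at positions 78 to 97 of PURPL-204 in exon 1. The printed siSALIS_01 itself was found in no transcript, so it matched LINC01186 in neither orientation. The printed siSALIS_02 was found in 1 transcript, of LINC01186. PURPL had 15.3 and 22.2 CPM in siNC replicates 1 and 2, and 12.6 and 23.1 CPM in siLINC01186 replicates 1 and 2. Its differences were -0.26 in replicate 1 and 0.01 in replicate 2, and its log2 fold change was -0.10 ± 0.29 (SE). Both replicate 2 libraries lay above both replicate 1 libraries.

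The fit with the block holds both the group and the replicate number. It leaves 1 residual degree of freedom, so its p-values lean on a spread estimated across genes. In this fit 87 of the 303 members had an adjusted p under 0.05 between the replicates, 49 of them higher in replicate 2 and 38 lower. This is 16.2% higher and 12.5% lower, where all genes tested gave 7.96% and 9.55% and protein-coding genes at the same level gave 9.8% and 18.6%. The share called was 28.7% in the members and 28.4% in those protein-coding genes, with 49 of the 87 calls higher in the members and 1024 of the 2964 in the protein-coding genes. DESeq2's Wald test called 18 members, 6 higher and 12 lower, and edgeR without the group term called 45. Under library totals without TMM the members split into 68 higher and 25 lower and the protein-coding genes into 1671 and 1047, as the median of all genes moved from 0.02 to 0.13. The direction of small differences thus changed with the scaling. The differences in siNC and in siLINC01186 had a correlation of 0.70 across the members, as a description. The replicate 2 libraries also held the higher hepatocyte and fibroblast marker sums given above, the latter with 3 of 5 genes higher, whose part in the result was not tested.

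**Figure D5:**
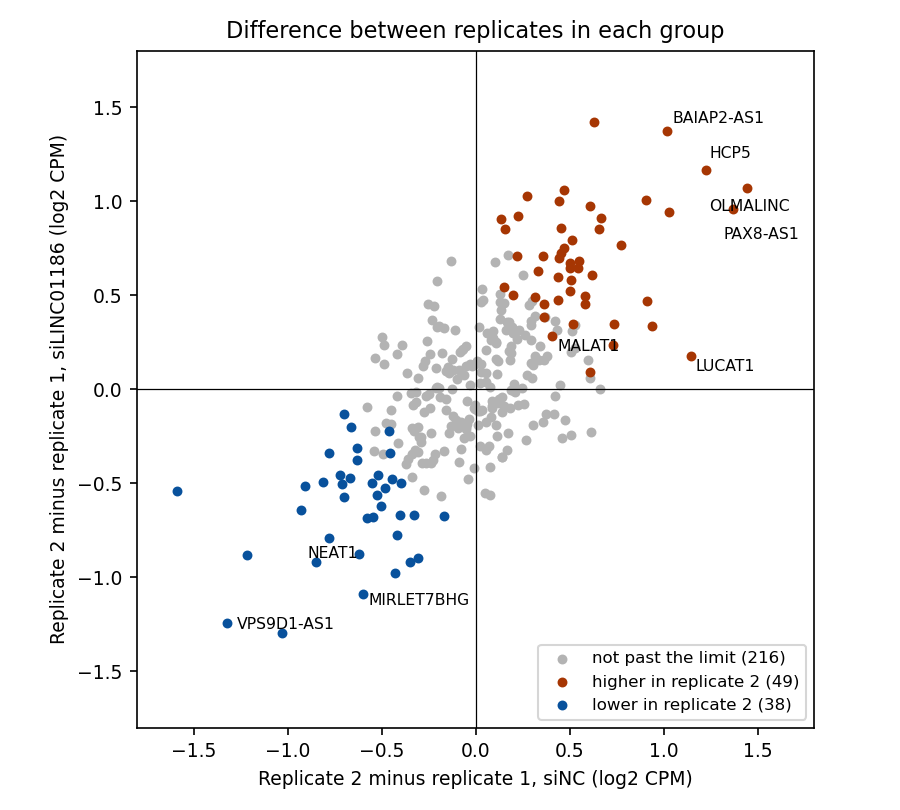
Difference between replicate 2 and replicate 1 in log2 CPM within siNC (horizontal axis) and within siLINC01186 (vertical axis) for the 303 members, coloured by the adjusted p of the replicate in edgeR's fit with the group. The 49 members called higher lie in the upper right and the 38 called lower in the lower left, with a correlation of 0.70 over all points.

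The members clear of protein-coding genes held 50 of the 87 calls, 32 higher and 18 lower, out of 127. By class, the intergenic members had 14 higher and 5 lower of 48, and the antisense members 12 and 8 of 96. The readthrough entries had 5 and 6 of 43, the snoRNA hosts 1 and 4 of 21, and the unclassed members 17 and 15 of 95. All genes tested gave 7.96% higher and 9.55% lower. For the 43 readthrough entries the log2 fold change had a correlation of 0.87 with that of the most abundant gene they cover, and for 114 members overlapping on the opposite strand it was 0.51. For the 127 clear members and the nearest protein-coding gene that reached 5 CPM it was 0.03. These correlations describe genes counted from the same libraries, and overlapping entries may share reads.

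OLMALINC, at chr10:102133333-102148111 beside the fatty acid desaturase gene SCD, was the member with the largest rise. It had 6.13 and 6.95 CPM in the siNC and siLINC01186 libraries of replicate 1 and 17.8 and 16.3 CPM in those of replicate 2. Replicate 2 was thus well above replicate 1 in both groups, with a log2 fold change of 1.27 ± 0.18 (SE, adjusted p = 2.19e-10). SCD, which lies 8745 nt away, rose by 0.43 ± 0.09 (SE). HCP5, a lncRNA of the HLA region at chr6:31430957-31433586, had 9.89 and 8.35 CPM in replicate 1 and 24.5 and 21.0 CPM in replicate 2, a log2 fold change of 1.21 ± 0.17 (SE). Its nearest protein-coding gene at this level, the stress-induced immune ligand gene MICB, had a log2 fold change of -0.44. Only siLINC01186 replicate 2 was low for MICB, with 31.2 CPM beside 57.4 CPM in siNC replicate 2. Between siLINC01186 and siNC, MICB differed by 0.04 in replicate 1 and by -0.93 in replicate 2. The fall of MICB thus came from that library and was not seen in siNC. BAIAP2-AS1 had 9.31 and 6.35 CPM in replicate 1 and 19.98 and 18.5 CPM in replicate 2, a log2 fold change of 1.20 ± 0.17 (SE). PAX8-AS1, antisense to a thyroid and kidney transcription factor gene, rose by 1.17 ± 0.17 (SE). MIA-RAB4B rose by 1.05 ± 0.19 (SE), and RAB4B, the small GTPase gene in its span, by 1.04. Without siLINC01186 replicate 2 the log2 fold change of MIA-RAB4B was 0.63 and did not pass.

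VPS9D1-AS1, at chr16:89778264-89784573, was the member with the largest fall. It had 109 and 91.8 CPM in the siNC and siLINC01186 libraries of replicate 1 and 45.9 and 43.0 CPM in those of replicate 2. The log2 fold change was -1.28 ± 0.12 (SE, adjusted p = 7.89e-22), whereas VPS9D1, the gene on the opposite strand, had -0.22 ± 0.15 (SE, adjusted p = 0.371). The counts of VPS9D1-AS1 thus ran from 194% to 476% of those of VPS9D1 and did not follow them. SLCO4A1-AS1 had 11.5 and 12.6 CPM in replicate 1 and 5.88 and 5.60 CPM in replicate 2, a log2 fold change of -1.18 ± 0.19 (SE), and the transporter gene SLCO4A1 fell by 0.68. LOC100288181 fell by 1.05, with 52.2 and 52.6 CPM in replicate 1 and 23.7 and 31.6 CPM in replicate 2, and LY6K on the opposite strand fell by 1.29. RTEL1-TNFRSF6B fell by 0.79 and RTEL1, the helicase gene it covers, by 0.82. NEAT1 fell by 0.75 ± 0.08 (SE, adjusted p = 3.80e-16), while MALAT1 rose by 0.34 ± 0.08 (SE, adjusted p = 0.000486) and NORAD by 0.37 ± 0.10 (SE, adjusted p = 0.00217). MALAT1 and NORAD did not pass in DESeq2's Wald test, at the same log2 fold changes.

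A few further members are named after their values were seen, for what they are known to do. LINC01578, whose RefSeq name is CHASERR, lies at chr15:93426073-93441977, 1574 nt from CHD2, a chromatin remodeller gene whose expression it is known to limit. It had 55.5 and 52.0 CPM in replicate 1 and 34.0 and 33.3 CPM in replicate 2, and fell by 0.79 ± 0.13 (SE). CHD2 had 128 and 124 CPM in replicate 1 and 215 and 204 CPM in replicate 2, and rose by 0.62 ± 0.11 (SE). The lncRNA and its neighbour thus moved in opposite directions, and a link between the changes was not tested. Of the 127 clear members, 67 had the same sign as their nearest protein-coding gene with 5 CPM, and the rest did not. FZD10-AS1, 781 nt from the Wnt receptor gene FZD10, rose by 0.78 ± 0.17 (SE), and FZD10 rose by 0.84 ± 0.15 (SE). DESeq2's Wald test did not call FZD10-AS1.

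Of 5 members in a list of microRNA host genes, MIR22HG passed, as lower in replicate 2, where 9.55% of all genes tested were called lower. MIRLET7BHG, which covers let-7 hairpins, is outside the list and was named after its values were seen. It had 20.7 and 19.4 CPM in replicate 1 and 14.4 and 10.1 CPM in replicate 2, a log2 fold change of -0.84 ± 0.16 (SE). MIR22HG had 10.1 and 6.75 CPM in replicate 1 and 6.13 and 5.90 CPM in replicate 2, a log2 fold change of -0.58 ± 0.20 (SE). Without siNC replicate 1 its log2 fold change was -0.29 and did not pass, nor did it pass in DESeq2's Wald test. H19 and MIR34AHG, the hosts of miR-675 and of the p53-induced miR-34a, had 0.10 and 0.37 and did not pass. The mature microRNAs of these hosts, from RefSeq, are shown with the seed (bases 2 to 8) in capitals.
hsa-let-7a-5p: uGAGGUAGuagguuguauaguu
hsa-let-7b-5p: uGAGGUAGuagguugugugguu
hsa-miR-22-3p: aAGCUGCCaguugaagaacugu
hsa-miR-34a-5p: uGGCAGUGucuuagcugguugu
hsa-miR-675-5p: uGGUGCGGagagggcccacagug
The let-7 microRNAs share their seed and the others each have their own. Poly(A) libraries count the host RNA, and the mature microRNAs were not measured.

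The list members are given last, by what the lncRNAs are known for. Between the replicates, 17.5% of all genes tested and 28.7% of all members had an adjusted p under 0.05. NEAT1, MALAT1, NORAD and DANCR recur across the lists, so the lists are not separate results. Of 8 members among lncRNAs of nuclear bodies and chromatin, MALAT1 passed as higher in replicate 2 and NEAT1 as lower, while TUG1 (0.28) and HOTAIR (0.38) did not pass. By sign alone 5 of these 8 had lower values in siLINC01186 within both replicate numbers and 0 had higher ones, where all genes tested gave 26.2% and 27.2%, and the median log2 fold change of the 8 was -0.10. NEAT1, HOTAIR and HOTAIRM1 were among the 5, while TUG1 (-0.00 in replicate 1) and LINC-PINT (-0.04 in replicate 2) lay near 0 in one of the pairs. LINC-PINT had 14.6 CPM in siNC and 14.7 CPM in siLINC01186 of replicate 2, so its sign there depends on the scaling. Of 20 members among snoRNA hosts, SNHG19 passed as higher (0.62), and DANCR (-0.54), SNHG11 (-0.57), SNHG15 (-0.60) and SNHG17 (-0.40) passed as lower. Of 6 members among p53 and DNA damage lncRNAs, PURPL (0.59) and NORAD (0.37) passed as higher and PVT1 (-0.50) and NEAT1 (-0.75) as lower. Of 4 hypoxia-responsive members, LUCAT1 (0.65, and 0.26 without siNC replicate 1, where it did not pass) and MALAT1 (0.34) passed as higher and NEAT1 (-0.75) as lower. Of 7 members among cytoplasmic lncRNAs that act on RNA or translation, TINCR (0.66), which had 46.7 and 40.1 CPM in replicate 1 and 67.4 and 80.7 CPM in replicate 2, and NORAD passed as higher and DANCR as lower. None of 3 imprinted members and none of 5 loci with a known small peptide passed. Of the members named as called in this paragraph, NEAT1 and TINCR were also called by DESeq2's Wald test and the others were not, and NEAT1 alone stayed called with each library left out in turn. No gene of the 9 lists passed the study's limits between siLINC01186 and siNC.

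Of 21 lncRNAs of liver and liver cancer in the tables, 8 were members, and 7 had no count in any library, HULC among them, a lncRNA named for its high level in liver cancer. The members were lncRNAs known from many cancers, such as MALAT1, H19, CCAT1, HOTAIR and PVT1. MALAT1 passed as higher in replicate 2 and DANCR and PVT1 as lower in edgeR, and DESeq2's Wald test called none of the 3. HEIH, a lncRNA named after hepatocellular carcinoma that is outside this list, had 10.3 and 10.9 CPM in replicate 1 and 14.7 and 16.9 CPM in replicate 2, a log2 fold change of 0.46 ± 0.17 (SE), and was not called by DESeq2.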

How the data were processed

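The authors deposited a table per library with unnormalized counts per gene and TPM values, which divide the counts by gene length and scale them to the library. The submitters' processing notes name hg19, HISAT, HISAT2, TopHat2 and Bowtie2; the counting program, annotation and strand setting are not given in the sources used here. The 23942 genes whose counts in the 4 libraries summed to 5 or more were fitted in R 4.3.3 with edgeR 4.0.16 (TMM, quasi-likelihood test) and with DESeq2 1.42.0 as an alternative, with Benjamini-Hochberg adjustment over all of them. The fits were tested on simulated data with 200 strongly changed genes. The group comparisons were simulated without the difference between replicates seen here. These runs therefore do not show how the fits behave with that difference or with small changes. The main comparison of siLINC01186 with siNC had no block, and the replicate comparison had the group as a term. Log2 CPM used a prior count of 2. Tables and figures were made in Python 3.11.15.

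The members and lists were chosen with earlier results of these data known. Members were named as the 15 highest by CPM and the 10 highest by TPM, those past the limits, up to 5 higher and 5 lower by smallest p with the block and between replicates, the 3 largest rises and falls within each replicate number, the 2 nearest each side of the minimum, list members, and PURPL.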

Additional observations from a re-analysis of the deposited data

How the results depend on the processing

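Between siLINC01186 and siNC, the count of members past the study's limits stayed at 0 under every alternative run except leaving out a library, which gave 0 to 2. The count with an adjusted p under 0.05 was 0 throughout, leave-outs included, except with the replicate number as a block, which gave 2. The labels give same-numbered libraries only a number in common, but these libraries deviated together. The correlation was 0.70 over the members and 0.32 over all genes tested, from 2 pairs. The median absolute difference of the members was 0.16 and 0.17 within replicates 1 and 2. It was 0.27 and 0.28 between the replicates of siNC and of siLINC01186. The main comparison of the groups has no term for this pairing. The median log2 fold change of the members lay between -0.0585 (without siLINC01186 replicate 2) and 0.00776 (without siNC replicate 1) over the leave-outs. It was 0.0109 with library totals, so its sign depends on the scaling.

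Between the replicates, the 87 calls became 18 with DESeq2's Wald test, 57 with edgeR's filterByExpr, 45 with no group term and, with no group term, 25 to 72 when a library was left out, with 35 without siNC replicate 1 and 25 without siLINC01186 replicate 1. With a minimum of 10 CPM 49 of 176 lncRNA genes were called and with 2 CPM 139 of 520. An alternative chosen after seeing the data, the 127 members clear of protein-coding genes, gave 50. Of 29 named members called between the replicates, 14 were called by DESeq2, 22 with filterByExpr, 24 with library totals, and 14 to 24 with a library left out. DESeq2 did not call MALAT1, NORAD, TMX2-CTNND1, P2RX5-TAX1BP3, FZD10-AS1, HEIH, DANCR, PURPL, LUCAT1, MIR22HG, PVT1, SNHG11, SNHG15, SNHG17 and SNHG19. None of the 29 changed sign under any of these. The cause of these differences was not tested. Depth reaches down to 75 counts for a member in a library, where counting error is largest, and shared reads limit the 176 members that overlap a protein-coding gene.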
